A study of Mus musculus with 45 samples.

Results

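The OKS course follows mouse neural progenitor cells (NPCs) during reprogramming with the factors Pou5f1 (Oct4), Klf4 and Sox2 and without Myc. It comprises every OKS library in NPC medium at day 0 or in serum medium with LIF and doxycycline (FBS-LIF with dox) afterwards, which is 11 of the 45 libraries of the series. The 7 R9 libraries cover days 0, 2, 4, 6, 10, 14 and 20, and the 4 R10 libraries cover days 0, 2, 6 and 18, with 1 library per day and chemistry. R9 marks libraries made by direct cDNA synthesis after poly(A) enrichment, and R10 marks PCR-amplified cDNA made from total RNA, both for Oxford Nanopore sequencing. The labels do not say whether libraries of the same day share their RNA. All cells came from stably transfected NPC lines whose parent was the Oct4-GFP stem cell line O4G, itself made from R1, with the genotype label OKS-Luciferase-AS. Day 0 cells grew on Geltrex, and later cells were seeded on gelatin and received FBS-LIF with 1 µg/mL doxycycline until collection, with passaging as needed. Whole cultures were pelleted, with no sort stated. In such bulk RNA, fewer cells of a type and less RNA per cell cannot be told apart. The groups set beside the course were wild-type and OKMS progenitors in NPC medium, wild-type cells given FBS-LIF with dox for 2 days (1 R9 and 2 R10 libraries), OKMS cells in the same medium, OKS cells moved to 2i-LIF, and embryonic stem cells of lines O4G and R1 in 2i-LIF (2 R9 and 7 R10 libraries, of which 2 in R10 carry the cell line label R1-Clone3).

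As background, Pou5f1 and Sox2 are transcription factors that bind DNA together and maintain the pluripotent state, and Klf4 acts beside them. Sox2 is also normally expressed in neural progenitors. During reprogramming a cell loses the expression of its starting identity, acquires epithelial features such as E-cadherin junctions, and activates its own pluripotency network, usually in a minority of the culture. Serum with LIF keeps mouse stem cells in a more heterogeneous state than 2i-LIF, and serum alone causes neural progenitors to take on astrocyte features.

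The OKS libraries held 447990 (R9 day 10) to 2678385 (R10 day 2) reads assigned to genes, and mitochondrial genes took 0.387% to 2.04% of them, the last value in the R10 day 18 library. The neural identity of the starting cells was checked on 6 markers. Their summed level was 5337 CPM (counts of a gene scaled to a fixed total per library) in R9 and 5762 CPM in R10 at day 0, mostly from Fabp7 and Ptn, while Sox1 was at 0 in both. The stem cell markers Pou5f1, Nanog, Zfp42, Esrrb and Dppa5a together reached 7444 CPM at R9 day 20 and 5347 CPM at R10 day 18, from 21.9 and 26.3 CPM at day 0. Neuron markers summed to 295 CPM at R9 day 0 and 997 CPM at day 20, of which Stmn2 gave 931 CPM, and to 384 and 666 CPM at R10 days 0 and 18. Astrocyte markers stood at 1454 CPM at R9 day 0, 2947 CPM at day 2 and 144 CPM at day 20, and at 1556, 4328 and 133 CPM at R10 days 0, 2 and 18, with oligodendrocyte markers between 25.6 and 162 CPM throughout. Endothelial markers summed to at most 17.96 CPM and blood and macrophage markers to at most 9.34 CPM in any OKS library, while muscle markers reached 45.3 CPM at R9 day 20 and 38.4 CPM at R10 day 18. Fibroblast markers lay between 37.1 and 287.0 CPM over the course. The part of these other cells in the results was not tested.

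Expression changed in 2 large steps separated by a long plateau. Between days 0 and 2, 1056 of 8197 R9 genes (12.9%) moved at least 4-fold, where a gene had to reach 20 CPM in the higher library. Only 43 genes (0.546%) did so between days 2 and 4, 11 (0.139%) between days 4 and 6 and 58 (0.714%) between days 6 and 10. Movement resumed with 302 genes (3.71%) between days 10 and 14 and 1042 genes (13%) between days 14 and 20. The R10 libraries gave 944 genes (11.6%) between days 0 and 2, 37 (0.465%) between days 2 and 6 and 1823 (21.4%) between days 6 and 18. With 1 library per day these counts carry no test, and the intervals differ in length.

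The same order appeared when each library was placed on a line from non-OKS progenitors, at 0, to embryonic stem cells, at 1, using genes called in the other chemistry. The R9 OKS libraries lay at -0.001 at day 0, 0.098 at day 2, 0.13 at day 4, 0.143 at day 6 and 0.157 at day 10, over 7117 genes. Day 14 followed at 0.296 and day 20 at 0.697. The R10 libraries lay at 0.001, 0.081, 0.141 and 0.622 at days 0, 2, 6 and 18, over 5668 genes. Libraries of the same day in the 2 chemistries were at most 0.017 apart. Over genes higher in stem cells and genes higher in progenitors the R9 positions were 0.157 and 0.037 at day 2 and 0.738 and 0.654 at day 20. In R10 these positions already differed at day 0, at 0.038 and -0.037, and were 0.194 and -0.033 at day 2 and 0.646 and 0.598 at day 18, so the gap at day 18 was smaller than at day 0. OKS cells in 2i-LIF lay at 0.934 (R9 day 20) and 0.95 (R10 day 18), beyond the serum libraries of the same days. The stem cells were also kept in 2i-LIF, so medium and cell state cannot be told apart in these positions.

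**Figure D1:**
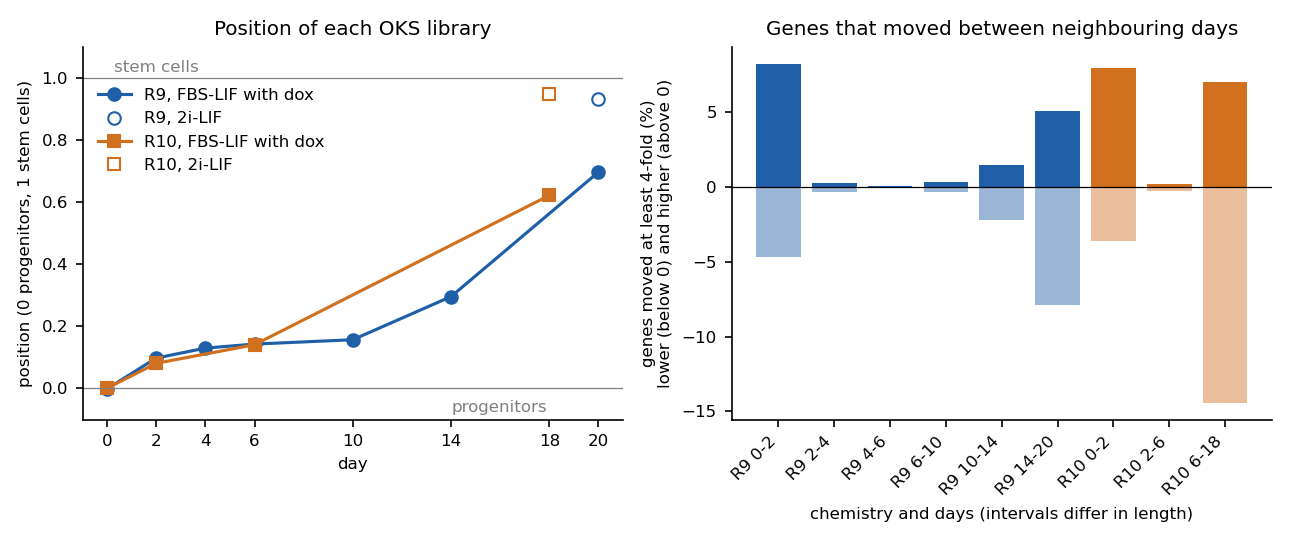
Left, position of each OKS library between progenitors (0) and stem cells (1) against day, with R9 as circles, R10 as squares and 2i-LIF libraries as open symbols. Right, percent of genes that moved at least 4-fold between neighbouring days, dark for higher and light for lower, where R9 shows 12.9% for days 0 to 2, 0.139% for days 4 to 6 and 13% for days 14 to 20.

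For tests, days were joined into day 0, early (days 2 to 6), mid (days 10 and 14, R9 alone) and late (days 18 and 20), and limma was fitted over all 11 libraries with chemistry as a term. A call required an adjusted p (Benjamini-Hochberg) under 0.05 and a difference of at least 1 on the log2(CPM + 1) scale, which understates changes of low genes. Nothing says that libraries of a phase are separate cultures, and the spread within a phase also holds the differences between its days. Early against day 0, 3469 of 18285 genes were called (19%), of which 2202 were higher (12.0%) and 1267 lower (6.93%). Mid against early, limma called 0 genes (0.0%), although 2171 had an unadjusted p under 0.05, and edgeR called 419 and DESeq2 66 on recovered reads. Late against mid, 4258 genes were called (23.3%), with 1840 higher (10.1%) and 2418 lower (13.2%). The median difference over all genes was 0.15 for the early and -0.15 for the late comparison, and the split depended on the scaling. Quantile normalization gave 1756 higher and 1673 lower early, and 2088 higher and 1944 lower late, while median centring gave 1955 and 1619 early and 2324 and 1897 late.

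The introduced factors were higher at day 2, the first day sampled after doxycycline. In the R9 libraries Pou5f1 was at 1.69 CPM at day 0, 62.8 at day 2, 60.1 at day 4, 107 at day 6, 4.46 at day 10, 213 at day 14 and 1393 at day 20. The R10 libraries gave 2.92, 141, 176 and 828 CPM at days 0, 2, 6 and 18, so the days 2 to 6 did not overlap day 0 in either chemistry. The CPM do not separate introduced from endogenous transcripts. The R9 day 10 library was low for Pou5f1, with 2 reads, and for Klf4, at 22.3 CPM, while Sox2 was at its highest there, at 216 CPM. Whether that culture carried fewer induced cells was not tested.

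Klf4, a Krüppel-like factor, stood at 5.06 CPM at R9 day 0 and between 50.8 and 83.0 CPM at days 2 to 6, and at 5.26, 117 and 143 CPM at R10 days 0, 2 and 6. Sox2 was already at 47.2 CPM (R9) and 31.5 CPM (R10) at day 0 and at 96.3 to 166 CPM at days 2 to 6 in the 2 chemistries. Early against day 0, Pou5f1 rose by 5.02 ± 0.98 (log2, SE), Klf4 by 3.81 ± 0.64 and Sox2 by 1.67 ± 0.32 (limma adjusted p = 0.0034, 0.0014 and 0.0030). None of these 3 calls held in the R9 libraries alone (adjusted p up to 0.16 for Pou5f1), and those for Pou5f1 and Sox2 were also lost without the R9 and the R10 day 0 library, respectively. Wild-type cells after 2 days in the same medium were at 1.17 to 1.42 CPM for Pou5f1 and at 0 to 4.24 CPM for Klf4. Myc, the factor absent from this set, fell early by 1.54 ± 0.41 on the log2 scale (limma adjusted p = 0.018), from 75.9 to 20.1 CPM between R9 days 0 and 2 and from 156 to 25 CPM in R10. That call was lost without the R10 day 0 library and in R9 alone (adjusted p up to 0.40). Whether the early changes of Sox2 and Myc were shared with wild-type cells was not tested.

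Most genes called early changed the same way in wild-type cells in the new medium. Of the 2202 genes that rose early, 1427 (64.8%) were also at least 2-fold higher in wild-type cells after 2 days than in wild-type progenitors, in both chemistries, against 12.9% of all genes tested. Of the 1267 that fell, 915 (72.2%) were at least 2-fold lower there, against 8.68% of all genes. The change of medium, of coating and the addition of doxycycline are parts of this step in wild-type cells as well.

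Astrocyte and acute-phase genes were prominent among the early rises, with 10 of 13 listed genes higher, 1 lower (S100b) and a list median of 3.94 against 0.15 over all genes, of which 12.0% were higher and 6.93% lower. Of these 11 calls, 7 were lost in R9 alone and 4 held under every alternative. Clu, which encodes the secreted chaperone clusterin, was at 8.43 CPM at R9 day 0, at 1197, 1480 and 1633 CPM at days 2, 4 and 6, and at 1071, 423 and 101 CPM at days 10, 14 and 20. Its R10 levels were 14.0, 752, 792 and 85.8 CPM, and the early libraries lay far above day 0 in both chemistries. The early rise of Clu was 6.51 ± 0.36 (log2, SE; limma adjusted p = 7.2e-07), and it kept its call under all 21 alternatives. Wild-type day 2 cells were at 1385 CPM (R9) and 972 to 1097 CPM (R10). Gfap, the astrocyte intermediate filament, peaked at day 2 with 182 CPM in R9 and 546 CPM in R10, and was higher in the wild-type libraries of that day (236 CPM in R9, 1056 to 3015 CPM in R10). C3, a complement protein, climbed more slowly, from 1.69 CPM at day 0 to 128, 253, 361 and 384 CPM at R9 days 2, 4, 6 and 10, then stood at 11.6 CPM at day 14 and 0 at day 20. In R10 it was at 2.92, 82.1, 174 and 0 CPM.

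Genes of the actin cytoskeleton formed another early group. Of 9 smooth-muscle actin cytoskeleton genes, 7 rose early and none fell, against 12.0% and 6.93% of all genes, with a median of 5.45. Acta2, smooth-muscle actin, was at 1.69 CPM at R9 day 0, 587 at day 2, 935 at day 4, 1276 at day 6, 953 at day 10, 2299 at day 14 and 292 at day 20. The R10 values were 6.43, 254, 531 and 362 CPM, and the early rise was 7.10 ± 0.56 (log2, SE; limma adjusted p = 8.1e-06). Wild-type cells at day 2 had 236 CPM of Acta2 in R9 and 47.0 to 107 CPM in R10. Late against mid, 2 genes of this list rose (Cnn1 and Tpm2) and 3 fell (Myl9, Ccn1 and Ccn2), against 10.1% and 13.2% of all genes. Of these 5 late calls, 2 were lost in R9 alone and 1 held under every alternative.

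S100a6 and Ly6a had their highest R9 level in the day 14 library. S100a6, a calcium-binding protein, went through 10.1, 1850, 2971, 4678, 3505, 14014 and 2077 CPM over the 7 R9 days and through 85.9, 1161, 4771 and 2693 CPM over the 4 R10 days. Ly6a, which encodes the surface antigen Sca-1, was at 0, 103, 129, 248, 315, 1940 and 143 CPM in R9 and at 4.09, 18.3, 183 and 717 CPM in R10. Wild-type day 2 cells held 409 CPM (R9) and 57.5 to 382 CPM (R10) of S100a6 and at most 0.391 CPM of Ly6a. Both rose early (6.50 ± 0.74 and 5.55 ± 1.01, log2 and SE; limma adjusted p = 1.0e-04 and 0.0022). The call for Ly6a was lost without the R9 day 0 library (adjusted p = 0.10). In their list of S100, annexin, Ly6 and galectin genes, 8 of 12 rose early and 1 fell (Ly6e), against 12.0% and 6.93% of all genes. Late against mid 1 rose (Lgals3) and 4 fell, against 10.1% and 13.2% of all genes, so the late rise was near the share of all genes.

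Cell division genes fell together and later recovered. All 12 listed mitosis genes and all 12 listed DNA replication genes were lower early than at day 0, with medians of -2.42 and -1.87 against 0.15 over all genes, of which 6.93% were lower. In R9 alone all 12 mitosis calls and 9 of the 12 replication calls were lost, 7 of each list were lost without a day 0 library, and 0 and 2 held under every alternative. Top2a, the topoisomerase of dividing cells, was at 438, 64.2, 72.5, 91.0, 58.0, 237 and 545 CPM over the R9 days and at 505, 73.5, 111 and 601 CPM over the R10 days. Its low values covered days 2 to 10, and day 14 lay between these and the ends of the course. The early fall of Top2a was -2.50 ± 0.40 and the later rise 2.16 ± 0.50 (log2, SE; limma adjusted p = 0.0010 and 0.0096), and neither call held in R9 alone, while the later one was also lost without R9 day 20 (adjusted p up to 0.091 and 0.11). Wild-type day 2 cells were lower still, at 0 CPM in R9 and 8.24 to 17.6 CPM in R10. Late against mid, 9 of the 12 mitosis genes and 9 of the 12 replication genes rose and none fell (10.1% of all genes were higher). Of these calls, 9 and 8 were lost in R9 alone, and 0 and 1 held under every alternative. Of 9 p53 and CDK inhibitor genes, Cdkn1b and Cdkn2b rose early and Cdkn1a (p21) fell by 1.42 on the log2 scale, and late Cdkn1c rose by 1.71 and Cdkn2a fell by 1.84, against 12.0% of all genes higher and 6.93% lower early and 10.1% and 13.2% late. None of these 5 calls held under every alternative, and that of Cdkn1c was lost without R9 day 10 and without R9 day 20 (adjusted p up to 0.26).

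Neural progenitor genes fell in the early and the late comparison. Early against day 0, 7 of 17 tested genes fell and 1 rose (Hes5), against 6.93% of all genes lower and 12.0% higher. Late against mid 12 fell and none rose, with a median of -2.70, against 13.2% of all genes lower and an all-gene median of -0.15. Of these calls, 6 of 8 early and 5 of 12 late ones were lost in R9 alone, and 1 early and 4 late ones held under every alternative. Olig1, a bHLH factor of the oligodendrocyte lineage, was among the first, with 469 CPM at R9 day 0 and 70.9 CPM at day 2, and 298 and 23.1 CPM in R10. Wild-type day 2 cells held 39.9 to 55.2 CPM of Olig1. Fabp7, a brain fatty-acid binding protein, fell later, with 3666, 4308, 539, 461, 183, 76.9 and 9.34 CPM over the R9 days and 4009, 3069, 1160 and 6.4 CPM over the R10 days. In R9 its first drop came between days 2 and 4, and wild-type cells at day 2 still held 2048 to 4840 CPM. The late fall of Fabp7 was -3.97 ± 0.93 (log2, SE; limma adjusted p = 0.0099), and its call was lost in R9 alone and without the R9 day 10 library (adjusted p up to 0.14).

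**Figure D2:**
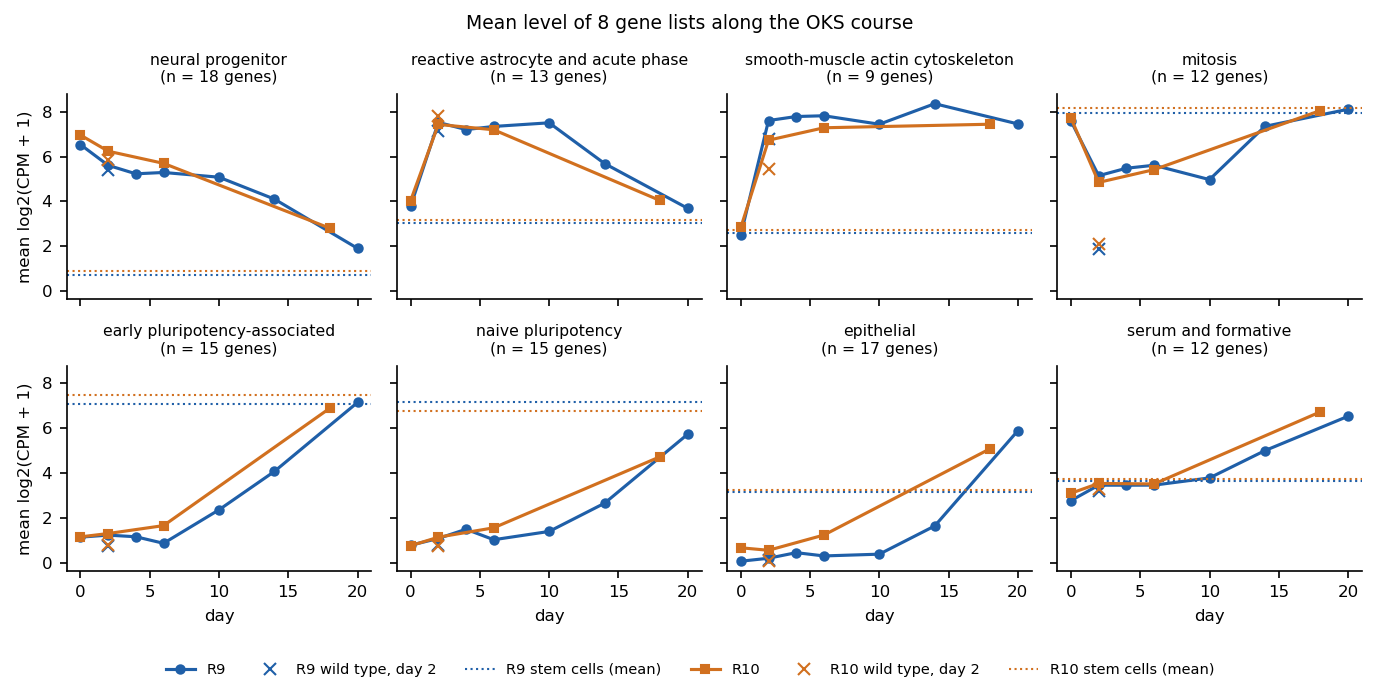
Mean log2(CPM + 1) of 8 gene lists in each OKS library against day, with R9 as circles and R10 as squares, crosses for wild-type cells at day 2 (mean over libraries of a chemistry) and dotted lines for the mean of embryonic stem cells. Astrocyte genes are high and mitosis genes low at days 2 to 10, actin genes are high from day 2 on with their highest R9 mean at day 14, and the pluripotency and epithelial lists climb mainly after day 10.

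Over the 7 R9 libraries, 4081 genes reached 20 CPM with a range of at least 4-fold and were sorted by shape. A sustained rise was seen in 606 genes, a sustained fall in 752, a transient high in 791 and a transient low in 449, and 1483 had another shape. Rises were dated by the first day from which a gene stayed past the midpoint between days 0 and 20. That day was 2 for 157 genes, 4 for 29, 6 for 12, 10 for 33, 14 for 82 and 20 for 293. Falls were dated to day 20 for 430 of 752 genes and to day 14 for 145. The R10 libraries took no part in the sorting, and 94.9% of the rises and 97.3% of the falls had the same direction from day 0 to 18 there, against 45.6% and 54.2% of all 9104 genes at 20 CPM. Transient highs were also transient in R10 for 95.7% (47.2% of all genes) and transient lows for 90.4% (34.7%). Rises dated to day 2 had their largest R10 step between days 0 and 2 in 84.7% of cases, against 33.4% of all 9104 genes. Those dated to day 20 had it between days 6 and 18 in 82.9%, against 61.1% of all genes over this longest R10 interval.

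Among named transient highs that also moved at least 4-fold the same way in R10, those of largest R9 range were C3, Ccn5, Plscr2, Cemip and Lbp. Their R10 movement was thus part of the choice. Ccn5, a secreted matricellular protein, was at 0 CPM at R9 days 0 and 20 and at 351, 365 and 310 CPM at days 4, 6 and 10, and in R10 at 2.34, 185, 398 and 0 CPM. It rose early by 7.20 ± 0.67 and fell late by 7.16 ± 0.84 (log2, SE; limma adjusted p = 2.6e-05 and 4.1e-04), and both calls held under all alternatives run. The bone morphogenetic protein targets Id1, Id2 and Id3 belonged to this class too. Id3 was at 369 CPM at R9 day 0, between 2145 and 4129 CPM at days 2 to 14 and at 320 CPM at day 20, and in R10 at 598, 4928, 3931 and 435 CPM. Transient lows included Slc16a3, a lactate transporter, at 33.7 CPM at R9 day 0, 0 from day 2 to day 10 and 126 CPM at day 20, with 33.9, 0.746, 1.28 and 70.4 CPM in R10.

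Among all tested genes, those that fell late had often risen early. Of the 2418 late falls, 978 (40.4%) were early rises, which is 44.4% of the 2202 early rises, while 12.0% of all tested genes rose early. Of the 1840 late rises, 426 (23.2%) had fallen early, which is 33.6% of the early falls, against 6.93% of all tested genes. The phase means of the early and late comparisons come from different libraries. Both comparisons were taken from the same fit, so they share the chemistry term and the residual variance of each gene. A gene with a small variance is more easily called in both, and the part of this in the overlap was not tested. Calls in the same direction were rarer, with 3.31% of the late falls lower early and 1.68% of the late rises higher early.

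Most listed pluripotency genes rose in the late step. Early, 2 of 15 early pluripotency-associated and 2 of 14 tested naive genes rose, a share near the 12.0% of all genes. Klf2 and Klf5, Krüppel-like factors of the naive list, rose early by 2.89 ± 0.48 and 3.06 ± 0.43 (log2, SE; limma adjusted p = 0.0012 and 4.4e-04), calls that held under all 21 alternatives. Klf5 was at 6.75 CPM at R9 day 0, 49.5 CPM at day 2 and 237 CPM at day 20, and wild-type day 2 cells held 24.7 to 76.4 CPM of it. Fbxo15 and Tdh of the early pluripotency-associated list rose early by 1.88 and 1.71, and both calls were lost in R9 alone and without the R10 day 0 library (limma adjusted p up to 0.28 and 0.34). Late against mid, 13 of 15 early pluripotency-associated genes and 12 of 14 tested naive genes rose and none fell, with medians of 3.82 and 3.28 against -0.15 over all genes, of which 10.1% were higher. Of these calls, 11 of 13 and 4 of 12 were lost in R9 alone, and 2 of 13 and 3 of 12 held under every alternative. Dppa5a, an RNA-binding protein of pluripotent cells, was at 11.8, 8.02, 2.86, 0, 37.9, 421 and 5019 CPM over the R9 days and at 15.8, 7.46, 8.96 and 3843 CPM over the R10 days. The R9 day 10 value rests on 17 reads. The late rise of Dppa5a was 4.69 ± 1.11 (log2, SE; limma adjusted p = 0.010), and the call was lost in R9 alone, with a pseudocount of 0.25 and without the R9 day 10 or day 20 library (adjusted p up to 0.11). Nanog, a core pluripotency factor, stayed at or below 11.6 CPM through R9 day 14 and reached 283 CPM at day 20 and 206 CPM at R10 day 18. Its rise of 4.91 ± 0.79 (limma adjusted p = 0.0015) held under all 21 alternatives.

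Zfp42 (Rex1), a zinc-finger protein and classical marker of naive cells, was the gene of this list with the largest late rise. Its R9 levels were 1.69, 0, 0.954, 0, 0, 35.6 and 595 CPM and its R10 levels 1.17, 0.373, 0.427 and 379 CPM, so it was near 0 until day 10 and intermediate at day 14. The late rise was 6.36 ± 1.28 (log2, SE; limma adjusted p = 0.0046), lost in R9 alone (adjusted p = 0.080). Stem cells held 712 to 737 CPM in R9 and 826 to 1179 CPM in R10. Zfp296, another zinc-finger gene dated to day 20, was at 0 CPM until R9 day 6, 2.23 CPM at day 10, 0.827 CPM at day 14 and 65.4 CPM at day 20, with 26.9 CPM at R10 day 18.

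Both genes carry the octamer ATGCAAAT, the motif read by POU factors such as Pou5f1, in the 250 bases before or 50 bases after the start given by RefSeq (GRCm38.p6). The promoters are shown as examples of genes dated to day 20 that hold the motif, with the octamer, here as its reverse complement, in capitals.
Zfp42 promoter, minus strand, chr8:43306960-43307259: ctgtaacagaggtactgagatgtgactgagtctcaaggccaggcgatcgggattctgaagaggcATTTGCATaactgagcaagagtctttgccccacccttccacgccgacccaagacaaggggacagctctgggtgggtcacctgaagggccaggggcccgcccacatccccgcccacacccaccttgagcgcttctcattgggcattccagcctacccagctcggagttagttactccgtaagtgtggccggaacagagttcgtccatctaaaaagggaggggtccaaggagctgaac
Zfp296 promoter, plus strand, chr7:19577037-19577336: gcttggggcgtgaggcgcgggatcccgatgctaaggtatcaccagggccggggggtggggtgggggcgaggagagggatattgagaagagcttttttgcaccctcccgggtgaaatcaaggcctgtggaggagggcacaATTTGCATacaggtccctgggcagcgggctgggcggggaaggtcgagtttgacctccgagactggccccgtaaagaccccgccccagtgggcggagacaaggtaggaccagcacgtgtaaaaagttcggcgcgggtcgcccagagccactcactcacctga
The motif was searched on both strands. It was present in 5 of 197 promoters of rises dated day 20 (2.54%), in 2 of 116 for day 2 (1.72%) and in 532 of 27025 promoters overall (1.97%). Fewer than 80% of the dated genes had a promoter in the table (197 of 293 for day 20), so the shares of the waves are void as a comparison, and a match is a description of the sequence only.

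**Figure D3:**
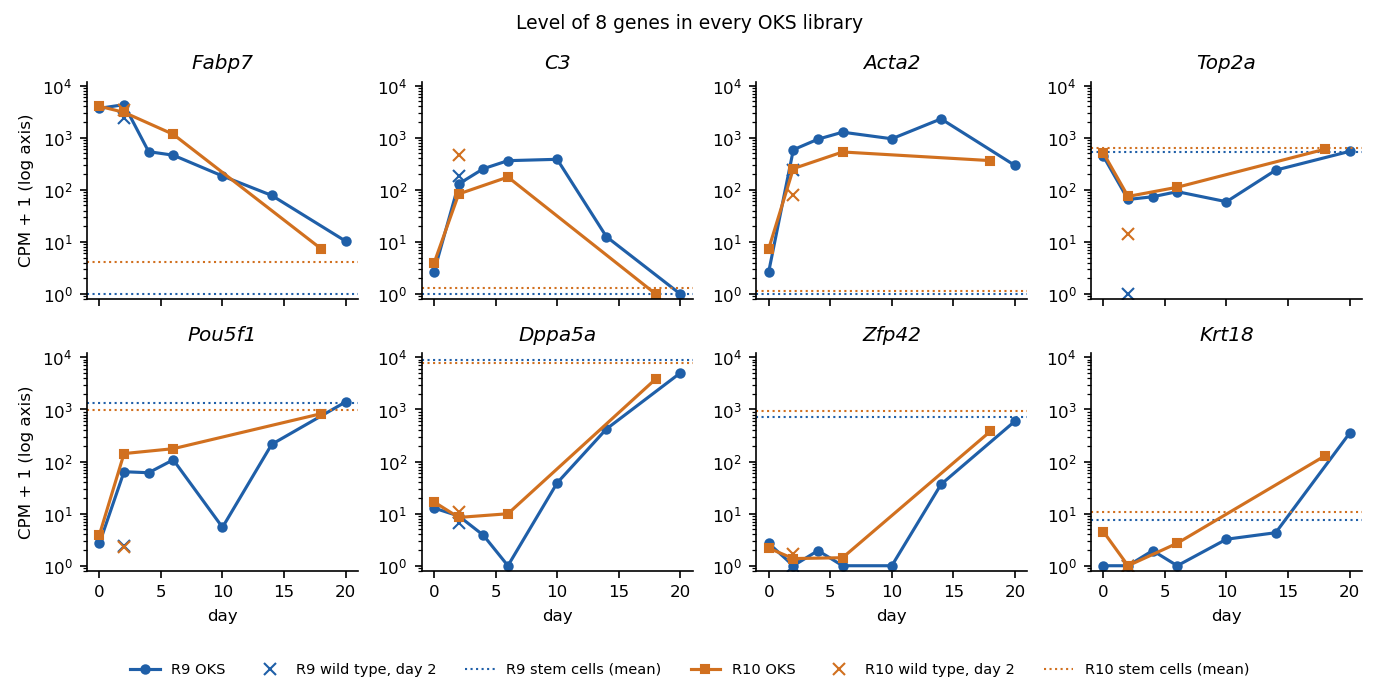
Level of 8 genes in every OKS library as CPM + 1 on a log axis against day, with R9 as circles, R10 as squares, crosses for wild-type cells at day 2 (mean of a chemistry) and dotted lines for the stem cell mean. Fabp7 declines from day 2, C3 is high from day 2 to day 10, and Acta2 stays above day 0 from day 2 on. Top2a is low from day 2 to day 10, and Dppa5a, Zfp42 and Krt18 are highest at R9 day 20 and R10 day 18.

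Epithelial genes were near 0 until the last libraries. None of 17 tested epithelial genes was called early, and 15 rose late against mid (10.1% of all genes), with a median of 4.14. Of these 15 calls, 8 held under every alternative and 2 were lost in R9 alone. Krt18, a simple-epithelium keratin, was at 0, 0, 0.954, 0, 2.23, 3.31 and 349 CPM over the R9 days and at 3.50, 0, 1.71 and 128 CPM over the R10 days, so day 14 did not stand apart from earlier days. Its late rise was 5.64 ± 0.88 (log2, SE; limma adjusted p = 0.0012). Cdh1, which encodes E-cadherin, was at 3.31 CPM at R9 day 14 and 111 CPM at day 20, and at 4.27 and 131 CPM at R10 days 6 and 18. It rose by 5.16 ± 0.84 (limma adjusted p = 0.0015), and the calls of both genes held under all 21 alternatives. Sfn (stratifin) had the largest late rise of all named genes, 7.50 ± 0.86 (limma adjusted p = 3.6e-04), from 3.31 CPM at R9 day 14 to 545 CPM at day 20, and from 0 to 150 CPM between R10 days 6 and 18. The mesenchymal factors Twist1, Zeb1, Zeb2 and Prrx1 fell late (4 of 7, none higher, against 13.2% of all genes lower), and of these calls that of Prrx1 alone held under every alternative. Early, Snai2, Twist1 and Prrx1 of this list had risen and Zeb1 had fallen (12.0% and 6.93% of all genes), and none of these 4 calls held under every alternative. The intermediate filament gene Vim fell late by 2.76 ± 0.34 (log2, SE; limma adjusted p = 4.6e-04).

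The lists differed in how much of their final level was present at day 14. Over the 1139 genes that rose late and reached 20 CPM at R9 day 20, the day 14 level was a median of 38.3% of the day 20 level (quartiles 19.7% and 49.4%). Mitosis genes stood at 48.9% (9 genes) and DNA replication genes at 49.1% (9 genes). Early pluripotency-associated genes stood at 9.28% (13 genes), naive genes at 6.23% (10 genes) and epithelial genes at 2.33% (13 genes). The genes were chosen by their late rise and rest on 1 library per day, so these shares are a description without a test.

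**Figure D4:**
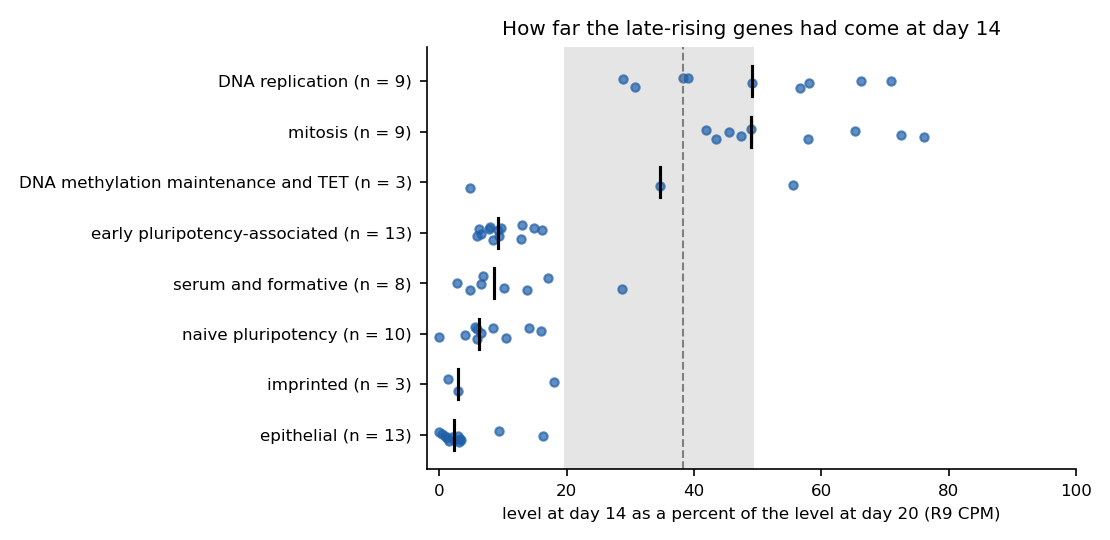
Level at R9 day 14 as a percent of the level at R9 day 20 for the late-rising genes of 8 lists, 1 point per gene, with the list median as a bar. The dashed line and grey band give the median and quartiles of all 1139 late-rising genes, and the epithelial and naive genes lie left of the band, while the mitosis genes run from 41.95% to 76.2% and the DNA replication genes from 28.78% to 70.92%, from inside the band to right of it.

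Genes of the serum and formative state rose in the same step. Of 12 listed genes, 8 rose late and 3 fell, the latter being Id1, Id2 and Id3, against 10.1% and 13.2% of all genes. Of these 11 calls, rises and falls together, 4 were lost in R9 alone and 3 held under every alternative. These counts do not say how many of the 8 rises held. Dnmt3b, a de novo DNA methyltransferase, was at 22.3 CPM at R9 day 14 and 162 CPM at day 20, and at 1.71 and 259 CPM at R10 days 6 and 18, against 13.3 to 43.6 CPM in stem cells of both chemistries. T (Brachyury), a mesoderm and primitive-streak factor, was at 0 CPM through R9 day 10, 1.65 CPM at day 14 and 58.9 CPM at day 20, and at 42.3 CPM at R10 day 18. It rose by 5.02 ± 0.57 (log2, SE; limma adjusted p = 3.6e-04), a call that DESeq2 on recovered reads did not make (adjusted p = 0.36). Of 9 tested imprinted genes, Igf2, Peg10 and Snrpn rose late, against 10.1% of all genes, and the other 6 did not pass the test. Of these 3 calls, 1 held under every alternative. Igf2, a fetal growth factor, reached 58.2 CPM at R9 day 20 and 21.8 CPM at R10 day 18, against at most 0.387 CPM in any stem cell library.

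The counts of the remaining lists stand beside 12.0% of all genes higher and 6.93% lower early, and 10.1% higher and 13.2% lower late. Of 12 extracellular matrix genes, 6 rose early and none fell (median 1.58), and 5 fell late and none rose (median -1.55). Sparc, a collagen-binding matrix protein, was at 1911 CPM at R9 day 0, 7272 CPM at day 2, 3084 CPM at day 14 and 612 CPM at day 20, and in R10 at 1237, 4389, 4168 and 857 CPM. Of 10 interferon and MHC class I genes, 6 rose early (median 1.43), and late 2 rose (Isg15 and Bst2) and 4 fell (Ifitm2, Ifitm3, B2m and Ifit3), with a median of 0.25. Of the 6 late calls, 4 were lost in R9 alone and 1 held under every alternative, and of the 6 early calls 3 held. Of 8 germline genes, 6 rose late and none fell (median 2.30). Of these 6 late calls, 2 were lost in R9 alone and 2 held under every alternative. Rhox5, an X-linked homeobox gene, fell early by 2.79 on the log2 scale (limma adjusted p = 0.011; lost in R9 alone and without either day 0 library), from 8.43 CPM at R9 day 0 and 7.01 CPM at R10 day 0. It reached 37.4 CPM at R9 day 20 and 15.4 CPM at R10 day 18, against 294 and 183 CPM in OKS cells in 2i-LIF. Of 5 genes of DNA methylation maintenance and the TET family, Dnmt1, Uhrf1 and Tet1 fell early and rose late (medians -1.52 and 1.97), and Tet2 rose early. All 4 early calls were lost in R9 alone and without a day 0 library. Tet2 (limma adjusted p = 0.047) kept its call under 9 of 21 alternatives, losing it with median centring and quantile normalization among others, and Dnmt1 under 15 of 21. Of the 3 late calls, 2 were lost in R9 alone and 1 held under every alternative. Of 5 trophoblast genes, Gata3, Tfap2c and Hand1 rose late (median 1.80), and of 4 endoderm genes Gata6 rose and Dab2 fell (median 0.74). All 5 of these calls were lost without the R9 day 10 library, and those of Gata3 and Tfap2c also in R9 alone. Early against day 0, Dab2 had risen and Gata3 had fallen. That early call of Dab2 held under every alternative, and that of Gata3 was lost in R9 alone. At R9 day 20 and R10 day 18 the median level was 3.95 and 1.92 CPM over 6 trophoblast genes. It was 5.39 and 3.2 CPM over 4 endoderm genes, where 3 reads are 2.16 and 3.84 CPM, so many of these levels rest on few reads. Of 4 stratified epithelium genes, Trp63 rose early and Krt17, Krt7 and Sfn rose late (median 3.29), and the 1 tested gene of the two-cell-like list, Eif4a3l1, rose late. The call of Trp63 was lost in R9 alone and without a day 0 library, and that of Eif4a3l1 did not hold under every alternative. Of the 3 late stratified epithelium calls, 2 held under every alternative.

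At the end of the course most late-rising genes lay within 4-fold of their stem cell level. The same share was not computed for all genes or for earlier days, so it does not show how far these genes had approached stem cells. Of 1236 such genes with at least 20 CPM at R9 day 20 or in the R9 stem cell mean, 76 (6.1%) were at least 4-fold above the stem cell mean and 41 (3.3%) at least 4-fold below it, and in R10 54 (4.5%) and 75 (6.3%) of 1190. Both chemistries placed 41 genes above and 31 below. Utf1, a chromatin-associated factor of pluripotent cells, was at 831 and 471 CPM in the last R9 and R10 libraries, against 133 to 152 CPM and 85.2 to 150 CPM in stem cells. Lin28a, an inhibitor of let-7 processing, was at 101 and 97.3 CPM against 3.79 to 22.1 CPM. Naive genes remained short of stem cells in several cases. Prdm14, a repressor that maintains naive pluripotency, was at 8.62 and 5.12 CPM against 41.7 to 64.2 CPM, and Spic was at 0 in all 11 OKS libraries against 17.7 to 74.5 CPM. The 2i-LIF libraries of OKS cells stood at 76.8 and 106 CPM for Spic and at 59.4 and 51.6 CPM for Prdm14. For T they stood at 0, and for Lin28a at 0 and 4.69 CPM. Stem cells were kept in 2i-LIF, so medium and cell origin cannot be told apart in this comparison.

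Set against OKMS cells, which carry Myc as well, the late difference was called more positive in OKS for 174 of 20943 genes (0.831%) and more negative for 20 (0.0955%), or 194 in all (0.926%), and this count varied widely when single libraries were left out. The late R9 step was compared gene by gene with R10 days 6 and 18, 1 library each, with 2342551 and 780312 reads. The part of this difference in depth was not tested. Of 408 genes at least 4-fold higher at R9 day 20 than at day 14, 388 (95.1%) were also higher at R10 day 18 than at day 6, and of 634 lower genes 593 (93.5%) were lower, against the same sign in 78.4% of all 8039 genes.

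Transcript use within genes changed in few cases at the late switch. Over 3013 genes with at least 20 TPM (transcript abundance scaled to a fixed total per library) in R9 days 14 and 20 and R10 days 6 and 18, 17 genes (0.564%) had a transcript whose share of the gene's TPM moved by at least 30 points in the same direction in both chemistries. In R9 alone, 236 of 3954 genes (5.97%) moved that far between days 14 and 20, and 478 of 4644 (10.3%) between days 4 and 6. More genes therefore changed transcript shares between the days with the fewest steps in level than across the late switch, and the part of depth in these shares was not tested.

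Myl6 had the most reads of the 17 genes over the 4 libraries together, with 2545 and 365 reads at R9 days 14 and 20 and 3256 and 526 reads at R10 days 6 and 18. It encodes an essential light chain of non-muscle and smooth-muscle myosin. The transcript that lost share contains a 45-base exon at chr10:128491720-128491764 (GRCm38, minus strand), which holds the last coding bases and the stop codon in GENCODE M21. The transcript that gained share, from 7.4% to 55.7% in R9 and from 6.0% to 40.2% in R10, skips this exon, is not in GENCODE and runs to position 128509817 across the neighbouring gene Myl6b. It holds the following exon, in which 2 GENCODE transcripts of Myl6 end their coding sequence. That exon was present in 34 of the 45 deposited transcripts that skip the 45-base exon. The 29 coding bases of both annotated ends, stop codon included, are shown because they differ between the GENCODE transcripts with and without the exon, with the 14 differing positions in capitals.
Myl6 with the exon, chr10:128491736-128491764: CATttgtGAggCATAtCctgTCGggGtga
Myl6 without the exon, chr10:128491005-128491033: AGCttgtCCggATGGtGctgAATggCtga
Summed over the 85 transcripts with the exon and the 45 that skip it, a measure chosen after the switch was seen, inclusion of the exon was 94.9%, 95.2%, 94.3%, 96.2%, 97.6%, 91.0% and 33.5% at R9 days 0, 2, 4, 6, 10, 14 and 20. In R10 it was 83.1%, 93.5%, 91.2% and 53.8% at days 0, 2, 6 and 18. The last library was the lowest in both chemistries. The other 26 transcripts that span the site were left out and held at most 1.3% of Myl6 TPM in these libraries. The value rests largely on the transcript that reaches into Myl6b, which held 84.5% of the skipping TPM at R9 day 20 and 87.9% at R10 day 18. In an alternative chosen after the data were seen, it was left out together with any transcript with the exon that reached well past Myl6. Inclusion was then 98.3% and 76.1% at R9 days 14 and 20 and 97.1% and 90.6% at R10 days 6 and 18, against 61.8% and 64.4% in R9 and 52.6% to 71.9% in R10 stem cells. Stem cells had 15.6% and 17.2% in R9 and 8.1% to 18.1% in R10 (median 12.5%, n = 7), other progenitors 88.3% to 91.7% in R9 and 65.7% to 84.2% in R10 (n = 3 each), and wild-type day 2 cells 93.8% to 95.4%. The level of Myl6 fell as well between R9 days 14 and 20, from 2105 to 262 CPM, and was 1389 and 674 CPM at R10 days 6 and 18. In TPM the gene went from 4980.3 to 597.1 in R9 and from 3914.1 to 1300.1 in R10 over these days. A gain in share therefore need not be a rise in the level of the skipping transcript. TPM carry no depth and come from 1 library per day, so the shares have no interval and no test.

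**Figure D5:**
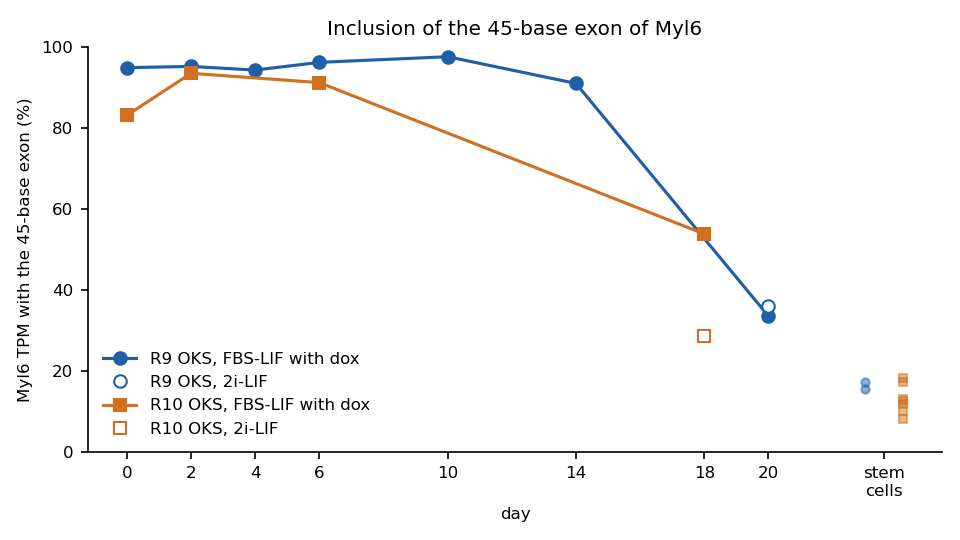
Percent of Myl6 TPM in transcripts with the 45-base exon against day, the transcript that reaches into Myl6b counted as skipping, with R9 OKS libraries as circles, R10 as squares, OKS cells in 2i-LIF as open symbols and stem cell libraries as small points at the right. Inclusion is 91.0% at R9 day 14 and 33.5% at day 20, and stem cell libraries lie between 8.1% and 18.1%.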

How the data were processed

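Long-read RNA of mouse cells was counted per gene and per transcript. The gene values are CPM deposited by the authors, and the transcript values are TPM deposited by the authors, and the counter is given as IsoQuant only in the names of these tables. Reads were aligned with minimap2 2.24-r1122 and the build mm10 was used, per the submitters' processing notes. In each library every CPM was a whole number of equal steps (100% of values, tolerance 0.02 reads), so read counts and depth were recovered from the deposited values. TPM keep no depth. Of 23575 gene rows, 20 without a gene name were left out (at most 0.2805% of reads), and 13 columns that matched no sample were not used. Gene names and positions came from GENCODE M21 (GRCm38) and promoters from RefSeq. Whether counting used strand is not given in the sources used here, so antisense and overlapping genes are uncertain.

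log2(CPM + 1) was tested two-sided with limma 3.58.1 (lmFit, eBayes with trend, R 4.3.3) over genes with at least 1 CPM in 2 libraries, with 6 residual degrees of freedom. On data simulated for the late minus mid comparison over 17461 genes, 89.6% of genes changed by a log2 fold of 2 and 100% of those changed by 3 or 4 were recovered, with 7 false calls. The simulated reads had a fixed dispersion and no differences between the days of a phase or between chemistries. Only genes with a mean of at least 20 CPM were changed, so these rates do not carry over to the real libraries. The alternatives were other pseudocounts, filters and scalings, edgeR 4.0.16 and DESeq2 1.42.0 on recovered reads, no chemistry term, R9 alone, each day as its own group, and leaving out each library. Wave shapes, steps, positions (regression slopes), transcript shares and motif counts are descriptions. Named genes were the 10 called genes of largest difference per direction with the same sign in both chemistries, the 5 of largest R9 range per wave, the 5 per direction between systems, and listed genes. The wave genes also had to move at least 4-fold the same way in R10. The members and the 22 gene lists were chosen with earlier results of these data known. Several listed genes have no row in the gene table and were not analysed here.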

Additional observations from a re-analysis of the deposited data

Results flagged for a closer look

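The late minus mid difference was compared between OKS and OKMS, the other factor system of the series, over 24 libraries with an interaction term. limma called 194 of 20943 genes (0.926%), of which 174 were more positive in OKS (0.831%) and 20 more negative (0.0955%), and 2985 had an unadjusted p under 0.05. The count depended on single libraries. It was 24 without the OKS R9 day 10 library, 53 without OKS R9 day 20, 99 without OKMS R9 day 10, 594 without OKS R9 day 14 and 692 without OKMS R9 day 20, and edgeR and DESeq2 called 39 and 23. None of the 27 listed or named genes called here kept its call under every alternative.

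The 5 genes most positive in OKS were the epithelial genes Sfn (8.16 on the log2 scale), Cldn6 (7.64), Krt19 (7.28) and Krt18 (6.93) and the anterior and formative factor Otx2 (7.3). At R9 day 10 the OKMS levels of Sfn, Cldn6, Krt19, Krt18 and Otx2 were 129, 145, 104, 297 and 66.1 CPM, where OKS had at most 2.23 CPM of each. Krt18 in OKMS R9 libraries was at 20.5, 297, 237 and 97.3 CPM at days 6, 10, 14 and 20, where OKS had 0, 2.23, 3.31 and 349 CPM. Otx2 in OKMS R9 was at 16.4, 66.1, 24.3 and 6.16 CPM on those days, and in OKS at 0, 0, 2.48 and 24.4 CPM.

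The 5 genes most negative in OKS were Dll1 (-4.17), a Notch ligand, Cdh26 (-3.62), Egfl6 (-3.47), Megf9 (-3.45) and Cyth1 (-3.13). Megf9 was at 134, 112 and 6.47 CPM at R9 days 10, 14 and 20 in OKS and at 12.7, 12.7 and 12.3 CPM in OKMS. Dll1, Cdh26 and Egfl6 are low genes, at most 22.3 CPM in any OKS library, so their values rest on few reads.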

How the results depend on the processing

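No named or listed gene that was called changed sign under any alternative. The balance of late calls did turn, from 1840 higher and 2418 lower to 2088 and 1944 with quantile normalization and 2324 and 1897 with median centring. No paired analysis was possible because the OKS labels carry no replicate numbers shared between groups. Early against day 0, 3469 genes became 1011 in R9 alone, and 1247 to 3759 when 1 library was left out (1247 without R9 day 0, 1754 without R10 day 0). Mid against early, 0 became 419 with edgeR, 66 with DESeq2 and 2 with each day as its own group, and 0 to 305 when 1 library was left out (305 without day 10, 10 without day 14). Late against mid, 4258 became 1435 in R9 alone and 2029 (without day 10) to 5180 (without day 14) when 1 library was left out, with 2298 without R9 day 20. The 194 genes that differed between OKS and OKMS became 83 with a pseudocount of 0.25, 118 with median centring, 39 with edgeR, 23 with DESeq2, 128 without a chemistry term, 123 in R9 alone, and 24 to 692 when 1 library was left out. With a minimum of 50 CPM the R9 waves held 291 rises, 449 falls, 485 transient highs and 247 transient lows, with 133 rises and 257 falls dated day 20, and with a range of 3 they held 376 falls (192 dated day 20), 334 transient highs and 121 transient lows. The R9 steps in day order became 585, 12, 1, 15, 120 and 558 with a minimum of 50 CPM and 3041, 593, 343, 720, 1583 and 3011 with a difference of 1. Reads thinned to the shallowest library gave 139, 69 and 96 genes for days 2 to 4, 4 to 6 and 6 to 10. The 17 genes with a transcript switch became 68 at 10 TPM, 140 at 20 points and 236 in R9 alone, the last over the 3954 genes at 20 TPM in both R9 libraries. On the same 3013 genes, R9 alone gave 118. The cause of these shifts was not tested, beyond the fewer libraries or genes that a setting leaves. Library positions moved by less than 0.017 under the 3 alternatives run. Of the listed and named genes called early, 57 of 134 kept the call under every alternative, and of those called late 53 of 174. A single library per day, 2 libraries at day 0 and a shallow R9 day 10 library (447990 reads, so that 3 reads are 6.69 CPM) limit all dating of waves.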
